A study of Saccharomyces cerevisiae with 5 samples.

Results

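Heterozygous deletion strains of the histone, silencing and deacetylase genes of budding yeast were followed through their DNA barcodes on 5 two-colour tag arrays. The list holds 41 genes for core and linker histones, silencing proteins, histone deacetylases, acetyltransferases, methyltransferases and histone chaperones, chosen by gene symbol in the platform annotation. Of these, 40 had named spots, and SET1 was not analysed here. They correspond to 42 of 5444 tag sets and to 84 of 10888 tags, a tag set being the pair of barcodes taken to mark a strain. The spots of SIR3 were kept as 3 tag sets, of 1, 1 and 5 spots a tag. The other 39 genes have 1 tag set each. Whether the SIR3 sets are separate barcode pairs or repeated spots of the same barcodes is not given in the sources used here. Each tag set was read in a first and a second tag block of the array, and which block holds the UPTAGs is not given in the sources used here.

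One array received Pool B DNA labelled with Cy5 and Pool A DNA labelled with Cy3 (the mixed array), 1 received Pool B in both channels (the Pool B array), and 3 received Pool A in both channels (the Pool A arrays, together with the Pool B array called self-self). All strains carry the deletion of 1 gene copy, were grown on YPD agar and were pooled before freezing, so no array compares a treatment or a growth time. The series design gives unequal amounts to 94 strains, present at 1:1, 1:8 or 1:64 in Pool B and with a further dilution by 0.33 to 5 log2 units, or no addition, in Pool A. Which strains these were is not given in the labels, so whether any member was among them is unknown. The values are log2 ratios of the 2 channels, centred on the median of the named spots of each array. Positive values were taken as more Cy5 signal, that is more Pool B on the mixed array. This direction is likely only, because the deposited table does not state it, and it rests on the dyes in the labels and on the design. The mixed hybridization had no dye-swapped partner.

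Nucleosomes wrap DNA around an octamer of core histones. Budding yeast encodes each core histone in a pair of genes on different chromosomes, and HHT1 and HHT2 encode histone H3 while HHF1 and HHF2 encode histone H4. The divergent neighbours are genes of different histones, such as HHT1 and HHF1. The SIR proteins silence the silent mating-type loci and telomere-proximal genes, with Sir2 as an NAD-dependent deacetylase, and the HST genes encode its homologues. Rpd3, Hda1 and the Hos proteins are deacetylases of a separate enzyme class, Esa1 and the Sas proteins belong to acetyltransferase complexes, and Asf1, the HIR proteins and chromatin assembly factor 1 (CAF-1) deliver histones to DNA. The ratios below describe barcode abundance and dye behaviour in pooled DNA, not transcription, silencing or chromatin.

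The named spots had array medians of -0.50 on the mixed array, -0.77 on the Pool B array and -0.33, 0.07 and 0.03 on the Pool A arrays, all before centring. Over all 22575 spots as deposited, named or not, the Pool B array correlated with the mixed array at r = -0.10 and with the Pool A arrays at -0.20 to -0.16. The mixed array correlated with the Pool A arrays at 0.83 to 0.88. Over the means of the 5444 tag sets, which the results below use, the Pool B array correlated positively with the others. There r was 0.29 with the mixed array and 0.10 to 0.30 with the Pool A arrays. The mixed array correlated with the Pool A arrays at 0.41 to 0.56. These are correlations across spots or tag sets, which are not independent replicates. The Pool B array also carries another title prefix than the other 4 arrays. The labels do not say what the prefix marks, and its pool cannot be told apart from whatever the prefix stands for. After centring, the first tag block had a lower median than the second on every array (-0.24 and 0.17 on the mixed array), which sets a common offset between the tags of a strain. The SD of a member over the 3 Pool A arrays had a median of 0.13, against 0.15 over all tag sets. The labels do not say whether the 3 Pool A arrays were separate cultures or DNA extractions. The p-values therefore reflect array-to-array spread, which may be technical, and the lone arrays are assumed to vary like them.

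On the mixed array, 2 of the 42 member tag sets were lower than on the Pool A arrays and none was higher. HST4, which encodes a Sir2-like deacetylase, differed by -1.09 ± 0.20 (SE), and HHT1, a histone H3 gene, by -0.78 ± 0.20. Over all 5444 tag sets, 7.38% were called in either direction by limma at an adjusted p under 0.05, with 5.84% lower and 1.54% higher, and 2 of 42 is near these shares. Both called strains are among the 23 member tag sets with 6 spots a tag, and 18 others have 1 spot a tag. The median difference of the members was -0.07, with quartiles of -0.22 and 0.17, against -0.06 over all tag sets. A difference smaller than the smallest dilution step, 0.33 log2 units, was seen in 35 of the 42 member tag sets (83.3%), against 68.8% of all tag sets. Of the 42 members, 31 lay outside the range of the 3 Pool A arrays on the mixed array, 14 above and 17 below, against 65.9%, 27.4% and 38.6% of all tag sets, so that lying outside this range did not set a strain apart. Set against the Pool B array instead, the same 2 strains were called lower and none higher, with -1.36 ± 0.25 for HST4 and -0.91 ± 0.24 for HHT1, where 5.20% of all tag sets were lower, 2.48% higher and 7.68% called in either direction.

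**Figure D1:**
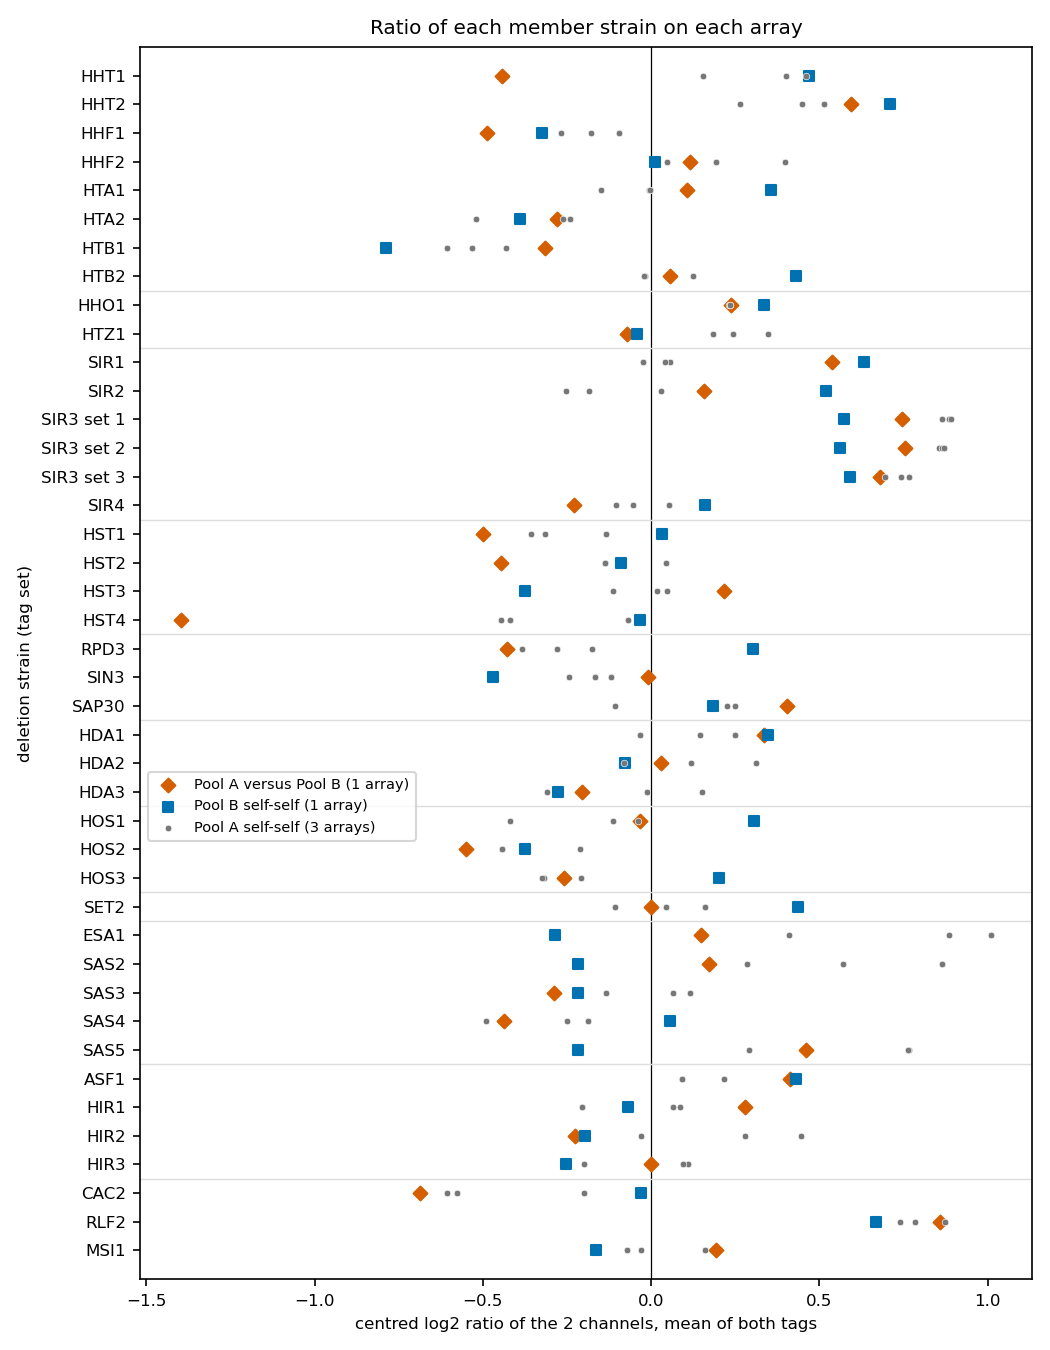
Centred log2 ratio (x axis, mean of both tags) of each member tag set (y axis, in functional classes separated by grey lines) on the mixed array (orange diamond), the Pool B array (blue square) and the 3 Pool A arrays (grey points). HST4 at -1.40 and HHT1 at -0.44 on the mixed array stand furthest to the left of their Pool A points.

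**Figure D2:**
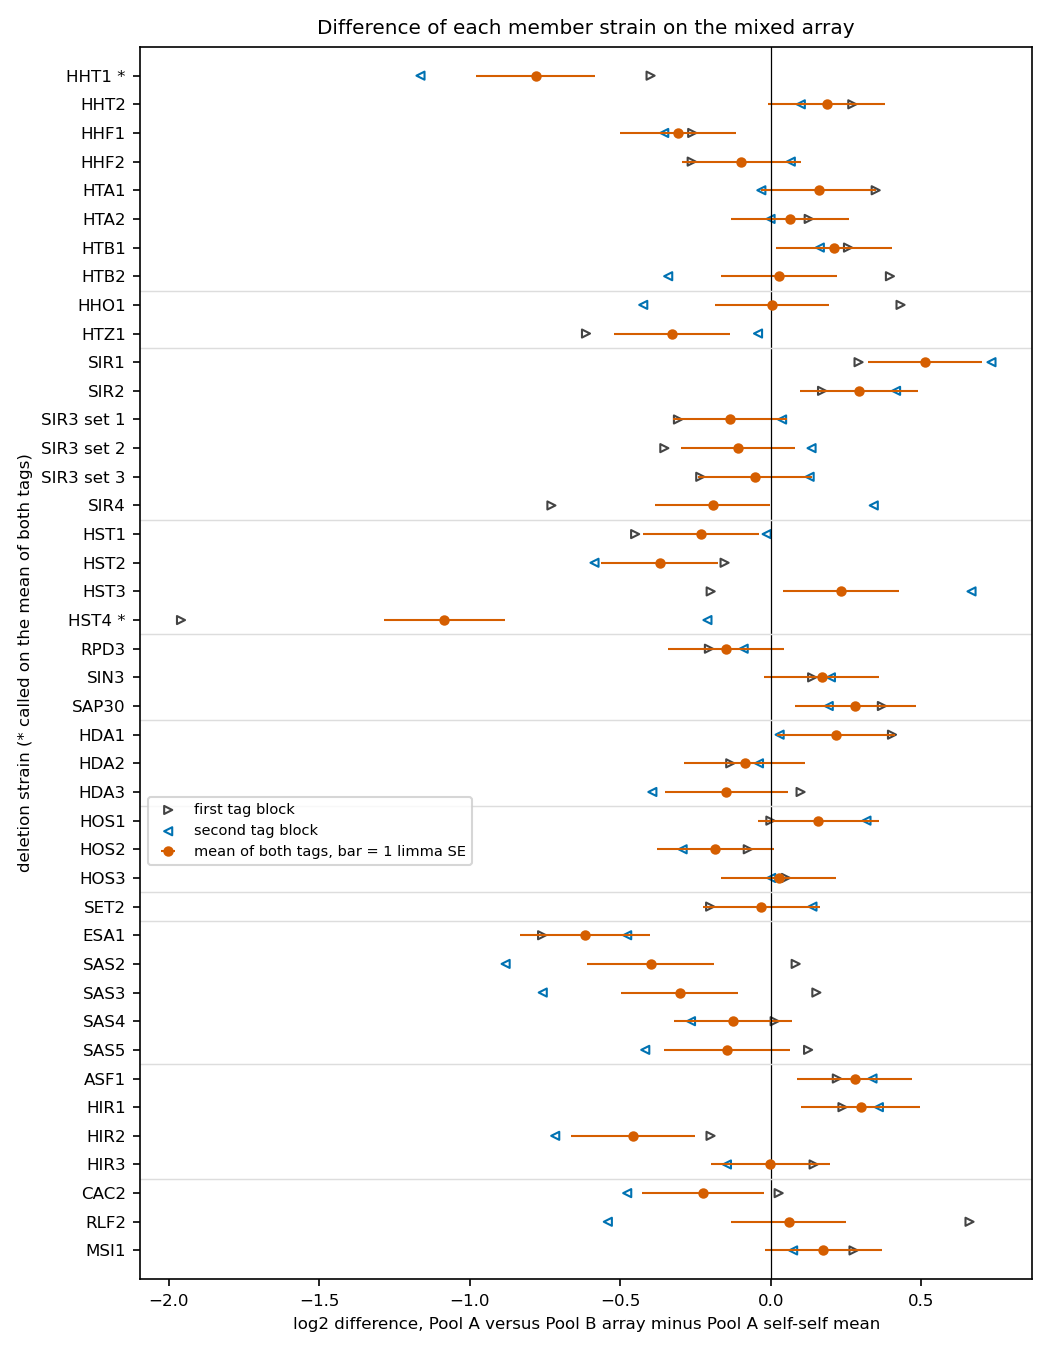
Log2 difference of each member between the mixed array and the mean of the 3 Pool A arrays (orange points with 1 limma SE), with the first tag (right-pointing triangles) and the second tag (left-pointing triangles) shown separately. Asterisks mark HHT1 and HST4, and the first tag of HST4 lies at -1.96 while its second lies at -0.21.

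The HST4 strain was the most extreme member. Its ratio was -1.40 on the mixed array, -0.03 on the Pool B array and -0.42, -0.07 and -0.45 on the Pool A arrays. The mixed array was thus below all 4 self-self arrays. The difference of -1.09 had a limma adjusted p of 0.000843 and ranked 42 from the lowest of the 5444 tag sets. It came from the first tag, which read -2.76 on the mixed array, -0.36 on the Pool B array and -0.82, -0.52 and -1.07 on the Pool A arrays, a difference of -1.96 ± 0.26 (limma adjusted p = 1.53e-05). The second tag read -0.03 on the mixed array, 0.29 on the Pool B array and -0.02, 0.38 and 0.17 on the Pool A arrays, a difference of -0.21 that was not called. The tags of HST4 therefore differed unequally, by -1.75 ± 0.33 for the first minus the second (limma adjusted p = 0.000297). Each HST4 tag is printed on 6 spots, and the 6 first-tag spots of the mixed array ran from -3.04 to -2.55, against -1.54 at the lowest on any Pool A array, so no single spot set the low value. With quantile normalization the difference of HST4 was -0.70 ± 0.16, and against the 4 self-self arrays as a set its call was lost (limma adjusted p = 0.117), although the first tag alone was still called (0.0254). Without Pool A replicate 1 the first tag missed the threshold (-1.97, limma adjusted p = 0.13), in a setting where 12 of all 10888 tags were called, while the strain's mean was still called.

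Among its relatives, SIR2 and HST1 to HST3 were not called on the mixed array. HST1, the paralogue closest to SIR2, read -0.50 on the mixed array, 0.03 on the Pool B array and -0.31, -0.13 and -0.36 on the Pool A arrays. HST2, which encodes a cytoplasmic deacetylase, read -0.45 on the mixed array, -0.09 on the Pool B array and -0.14, 0.04 and -0.14 on the Pool A arrays. HST3, which acts with HST4 on acetylated histone H3, read 0.22 on the mixed array, -0.37 on the Pool B array and -0.11, 0.02 and 0.05 on the Pool A arrays. The differences were -0.23 ± 0.19, -0.37 ± 0.19 and 0.23 ± 0.19, and limma adjusted p ran from 0.266 to 0.516. By the mean of both tags, HST3 thus lay above its Pool A arrays where HST4 lay below them. The tags of HST3 differed by -0.20 in the first and 0.67 in the second, neither called, so only its second tag was higher. The difference between these strains was not tested. Over SIR2 and the 4 HST strains, ratios spanned 1.61 log2 units on the mixed array, 0.89 on the Pool B array and 0.45, 0.23 and 0.49 on the Pool A arrays. HST4 was the lowest of the 5 on the mixed array and on Pool A replicates 1 and 3.

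The 4 SIR genes did not pass the test on the mixed array. SIR1, which helps to establish silencing at the silent mating-type loci, read 0.54 on the mixed array, 0.63 on the Pool B array and 0.06, -0.02 and 0.04 on the Pool A arrays. Its difference of 0.51 ± 0.19 was the most positive among the members (limma adjusted p = 0.104). SIR2, which encodes the deacetylase of the SIR complex, read 0.16 on the mixed array, 0.52 on the Pool B array and 0.03, -0.19 and -0.25 on the Pool A arrays, a difference of 0.29 ± 0.20. SIR1 and SIR2 were above their Pool A arrays on the mixed array and, by more, on the Pool B array. SIR4, which encodes a scaffold of the SIR complex, read -0.23 on the mixed array, 0.16 on the Pool B array and 0.05, -0.05 and -0.10 on the Pool A arrays, a difference of -0.19 ± 0.19. Neither tag was called, with -0.73 in the first and 0.34 in the second, but the first minus the second differed by -1.07 ± 0.32 (limma adjusted p = 0.0215). That call was lost without Pool A replicate 2 (limma adjusted p = 0.0924), without replicate 3 (0.0538) and with arrays scaled to one spread (0.0686). Against the Pool B array both tags were negative (-0.53 and -0.25) and their difference was -0.28, which was not called.

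SIR3, which encodes the SIR subunit that binds nucleosomes, gave an internal repeat. Its 3 tag sets read 0.74, 0.75 and 0.68 on the mixed array and 0.57, 0.56 and 0.59 on the Pool B array. On the Pool A arrays the first set read 0.86, 0.88 and 0.89, the second 0.86, 0.86 and 0.87 and the third 0.69, 0.77 and 0.74. The third set read lowest on the mixed and the Pool A arrays and highest on the Pool B array. The differences of the sets on the mixed array were -0.14, -0.11 and -0.05 (± 0.19 each), none of which was called. Over the 7 spots of the 3 SIR3 sets in the first tag block, the ratio ran from 0.72 to 1.20 on the mixed array and from 0.01 to 0.10 on the Pool B array. Since the sets share a gene, and nothing says that they mark separate strains, they are not independent.

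**Figure D3:**
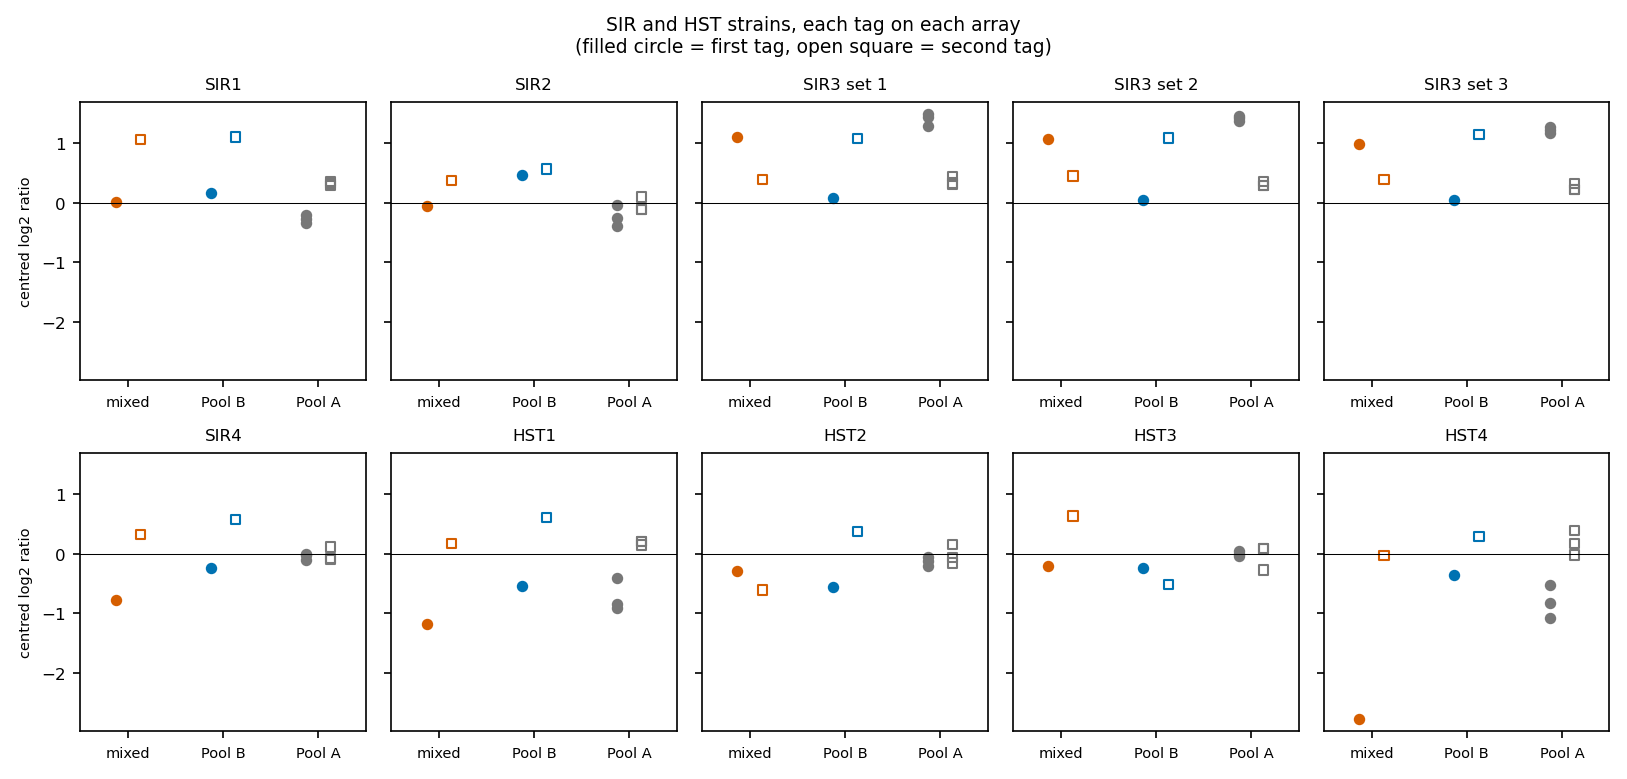
Centred log2 ratio (y axis) of the first tag (filled circles) and the second tag (open squares) of the SIR and HST tag sets on the mixed array, the Pool B array and the 3 Pool A arrays. The first tag of HST4 on the mixed array (-2.76) is the lowest point, and the tags of the 3 SIR3 sets trade places between the Pool B and the Pool A arrays.

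Among the 8 core histone strains, HHT1 alone passed the test on the mixed array, against 7.38% of all tag sets. HHT1 read -0.44 on the mixed array, 0.47 on the Pool B array and 0.40, 0.46 and 0.16 on the Pool A arrays. The mixed array was below all 4 self-self arrays, and the Pool B value lay just above the highest Pool A value. The difference of -0.78 ± 0.20 had a limma adjusted p of 0.0141, and the second tag (-1.16 ± 0.25, limma adjusted p = 0.00459) was called while the first (-0.40) was not. Both tags pointed down, and the 6 spots of the second tag ran from -0.38 to 0.04 on the mixed array, against 0.54 to 1.36 over the Pool A arrays. The call was lost without Pool A replicate 2 (limma adjusted p = 0.0651) and against the 4 self-self arrays as a set (0.311), and the second tag alone also missed it there (0.279) and without replicate 1 (0.134). Without centring the difference was -1.21 ± 0.38, in a setting where the median over all tag sets was -0.49.

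Its paralogue HHT2 was not lower. HHT2 read 0.59 on the mixed array, 0.71 on the Pool B array and 0.51, 0.45 and 0.27 on the Pool A arrays, a difference of 0.18 ± 0.19. HHT1 minus HHT2 was -1.04 on the mixed array, -0.24 on the Pool B array and -0.11, 0.01 and -0.11 on the Pool A arrays, so the H3 pair stood 0.97 further apart on the mixed array than on the Pool A arrays. An exact permutation test of 1 array against 3 gave p = 0.25, which is the smallest p that 4 arrangements allow, so the design cannot reach 0.05. The first tag gave -0.67 and the second -1.26 for the same change.

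For the other pairs, no such gap was seen with the mean of both tags. HHF1 minus HHF2, the histone H4 pair, was -0.60 on the mixed array, -0.34 on the Pool B array and -0.14, -0.37 and -0.67 on the Pool A arrays, with the mixed array inside the Pool A range. HTA1 minus HTA2, a pair that encodes another core histone, was 0.38 on the mixed array, 0.75 on the Pool B array and 0.25, 0.24 and 0.37 on the Pool A arrays. HTB1 minus HTB2, the remaining pair, was -0.37 on the mixed array, -1.22 on the Pool B array and -0.66, -0.41 and -0.59 on the Pool A arrays. The change on the mixed array was -0.21 for the HHF pair, 0.10 for the HTA pair and 0.18 for the HTB pair, with exact permutation p from 0.5 to 0.75. In the HTA and HTB pairs the array furthest from the Pool A values was the Pool B array, in opposite directions. By single tag blocks, the HHF change was 0.002 in the first and -0.42 in the second, and the HTB change was -0.14 and 0.50. In the second block both of these pairs lay outside their Pool A range on the mixed array, as the H3 pair did.

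The divergent partner of HHT1 is HHF1, its neighbour on chromosome II. HHF1 read -0.49 on the mixed array, -0.32 on the Pool B array and -0.09, -0.18 and -0.27 on the Pool A arrays, and its difference of -0.31 ± 0.19 was not called (limma adjusted p = 0.362). HHT1 minus HHF1 differed by -0.47 between the mixed array and the Pool A mean (exact permutation p = 0.25, again the smallest possible). HHF2, the neighbour of HHT2 on chromosome XIV, had a difference of -0.10 ± 0.20. HTA1 and HTB1, neighbours on chromosome IV, had differences of 0.16 ± 0.19 and 0.21 ± 0.19. HTA2 and HTB2, neighbours on chromosome II, had differences of 0.06 ± 0.20 and 0.03 ± 0.19. Limma adjusted p ran from 0.561 to 0.948 over these last 5 strains. The linker histone strain HHO1 differed by 0.003 ± 0.19 and the strain of the histone variant gene HTZ1 by -0.33 ± 0.19, neither of them called.

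**Figure D4:**
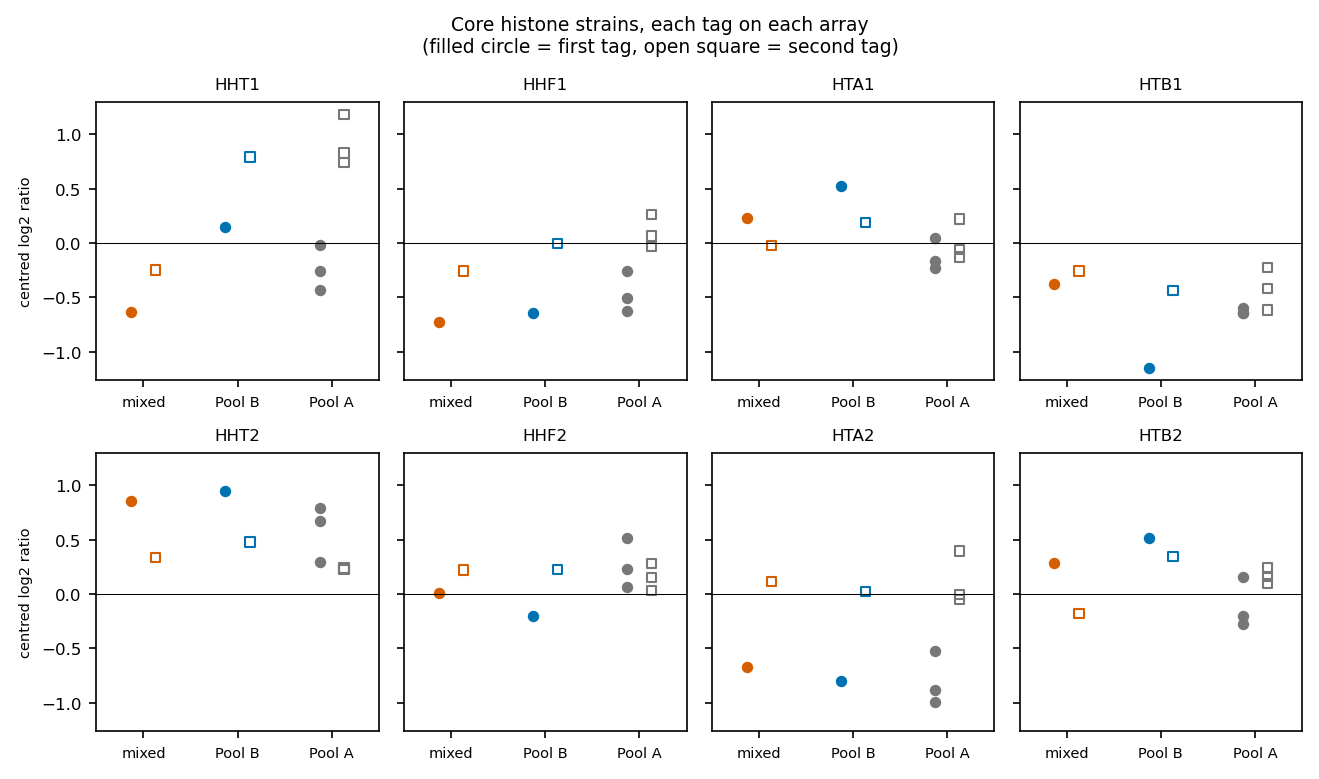
Centred log2 ratio (y axis) of the first tag (filled circles) and the second tag (open squares) of the 8 core histone strains, with paralogues in the same column, on the mixed array, the Pool B array and the 3 Pool A arrays. HHT1 has its second tag at -0.25 on the mixed array and between 0.74 and 1.18 on the Pool A arrays, while both HHT2 tags on the mixed array lie above their Pool A points.

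None of the Rpd3, Hda1 and Hos deacetylase strains and their partners was called on the mixed array. In the Rpd3 complex, the deacetylase RPD3 differed by -0.15 ± 0.19, the corepressor SIN3 by 0.17 ± 0.19 and the subunit SAP30 by 0.28 ± 0.20. In the Hda1 complex, the deacetylase HDA1 differed by 0.22 ± 0.20 and its partners HDA2 and HDA3 by -0.09 ± 0.20 and -0.15 ± 0.20. The deacetylase strains HOS1, HOS2 and HOS3 differed by 0.16 ± 0.20, -0.19 ± 0.20 and 0.03 ± 0.19. SET2, which encodes the methyltransferase that follows elongating RNA polymerase, differed by -0.03 ± 0.20. The 10 strains spanned -0.19 to 0.28, with SEs of 0.19 to 0.20.

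All 5 strains of acetyltransferase complexes had a negative difference on the mixed array, as did 3157 of all 5444 tag sets, and none of the 5 was called. ESA1, the catalytic subunit of the NuA4 complex, came nearest with -0.62 ± 0.22 (limma adjusted p = 0.0816), and without Pool A replicate 1 it was called (-0.80, limma adjusted p = 0.0264). With the Pool B array in place of the Pool A arrays the differences of ESA1 (0.43 ± 0.26), SAS2 (0.39 ± 0.26) and SAS5 (0.68 ± 0.26) had the other sign, and none was called. SAS2, catalytic subunit of the SAS complex, differed by -0.40 ± 0.21, and its partners SAS4 and SAS5 by -0.13 ± 0.20 and -0.15 ± 0.21. SAS3, catalytic subunit of the NuA3 complex, differed by -0.30 ± 0.20. In SAS2 the tags differed unequally, with 0.08 in the first and -0.88 in the second (first minus second 0.96 ± 0.33, limma adjusted p = 0.0471), a call lost without Pool A replicate 2 (0.201) or 3 (0.0972), after scaling arrays to one spread (0.106) and with only the lowest-numbered spot of every tag (0.0513). Against the Pool B array both SAS2 tags were positive (0.50 and 0.28) and their difference was 0.21, which was not called.

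The chaperone strains were not called either. ASF1, which encodes a histone H3 and H4 chaperone, differed by 0.28 ± 0.19. Of the HIR genes, which encode a corepressor of histone genes that also assembles nucleosomes, HIR1 differed by 0.30 ± 0.20, HIR2 by -0.46 ± 0.21 and HIR3 by -0.002 ± 0.20. The CAF-1 strains CAC2, RLF2 and MSI1 differed by -0.23 ± 0.20, 0.06 ± 0.19 and 0.17 ± 0.19. In RLF2, the large subunit, neither tag was called, with 0.66 in the first and -0.54 in the second, but their difference was (first minus second 1.20 ± 0.35, limma adjusted p = 0.0164), and this was lost without Pool A replicate 2 (0.129) and with arrays scaled to one spread (0.0889). Against the Pool B array both RLF2 tags were positive (0.35 and 0.03) and their difference was 0.32, which was not called. Unequal tags were called in 4 of 42 member tag sets (HST4, SIR4, SAS2 and RLF2), 2 in each direction, against 14.0% of all tag sets, 7.05% positive and 6.94% negative. None of the 4 was called against the 4 self-self arrays as a set, and 7 members were called without Pool A replicate 1. For these settings the share of all tag sets is not given here. With the Pool B array as the reference 6 were called, 5 positive and 1 negative (HST4, the only strain shared), against 14.7% of all tag sets, 6.58% positive and 8.14% negative. Over the 42 members, the first and second tag differences had the same sign in 22, against 2822 of all 5444 tag sets. Pearson's r across them was 0.08, against 0.23 over all tag sets. Spearman's correlation was 0.12, against 0.06, so the order depended on the measure. The points share arrays and are given as a description.

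At the level of single tags, 2 of the 84 member tags were called on the mixed array, both lower (the first tag of HST4 and the second of HHT1), against 8.40% of all tags, 1.87% higher and 6.53% lower. Without Pool A replicate 1 the count was 0. Against the Pool B array it was 10, of which 7 were higher and 3 lower, where 8.83% of all tags were called, 3.95% higher and 4.88% lower. The 7 higher tags include the first tags of all 3 SIR3 sets, which are not independent. With the tag blocks centred separately the count was 10, of which 3 were higher and 7 lower, and with quantile normalization it was 8, of which 3 were higher and 5 lower. The share of all tags called under these settings is not given here, so these counts do not set the members apart. No member had both tags called in the same direction or in opposite directions, against 1.12% and 0.147% of all tag sets.

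Pool A against itself showed which member barcodes carried a dye ratio with no difference in the pool. Of the 42 tag sets, 11 were above 0 and 9 below by limma's test, against 24.3% and 20.6% (44.9% together) of all tag sets, and counted by gene with SIR3 once there were 9 and 9 of 40. The SIR3 sets had means of 0.88 ± 0.01, 0.86 ± 0.01 and 0.73 ± 0.04 (SD, n = 3 arrays). RLF2 (0.80 ± 0.07), ESA1 (0.77 ± 0.32), SAS5 (0.61 ± 0.27), SAS2 (0.57 ± 0.29), HHT2 (0.41 ± 0.13), HHT1 (0.34 ± 0.16), HTZ1 (0.26 ± 0.08) and HHO1 (0.23) were the other strains above 0. HTB1 (-0.52 ± 0.09), CAC2 (-0.46 ± 0.23), HOS2 (-0.37 ± 0.13), HTA2 (-0.34 ± 0.16), HST4 (-0.31 ± 0.21), SAS4 (-0.31 ± 0.16), HOS3 (-0.28 ± 0.06), RPD3 (-0.28 ± 0.10) and HST1 (-0.27 ± 0.12) were below 0. In the HTB pair HTB1 was called below 0 while HTB2, at 0.03 ± 0.08, was not called, and in the HTA pair HTA2 was called below 0 while HTA1, at -0.05 ± 0.08, was not. The difference within these pairs was not tested. Both H3 strains were above 0. With only the lowest-numbered spot of every tag, RPD3 read -0.060, HST1 -0.055 and HHT1 0.20, and these 3 calls were lost (limma adjusted p = 0.663, 0.688 and 0.131). Without centring, 6 tag sets were called above 0 (the SIR3 sets, RLF2, ESA1 and SAS5) and 2 below (HTB1 and CAC2), and without Pool A replicate 3 these were 9 and 2. The share of all tag sets called under these settings is not given here, so these counts do not set the members apart.

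The first tag was called below the second on the Pool A arrays for 20 member genes and above it for SIR3 alone, by 1.05, 1.10 and 0.96 in its 3 sets. Over all tag sets 64.1% were called, 55.4% below and 8.69% above, and the median first minus second tag was -0.44, against -0.34 for the members. By single tags, 23 of the 84 member tags were above 0 and 16 below, against 25.7% and 22.5% (48.3% together) of all tags. These were 9 and 11 without centring, 12 and 13 without Pool A replicate 2 and 13 and 11 without replicate 3, settings for which the share of all tags is not given here. Both tags were called in the same direction in 5 member tag sets and in opposite directions in 5, against 8.49% and 14.3% of all tag sets.

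Pool B against itself differed from Pool A against itself in 6 of the 42 member tag sets, 3 higher and 3 lower, against 8.54% and 13.3% (21.9% together) of all tag sets. The 3 lower strains all carry deletions in acetyltransferase complexes. Each has 1 spot a tag, and their SDs over the Pool A arrays were 0.32 (ESA1), 0.27 (SAS5) and 0.29 (SAS2), against a member median of 0.13. Of the partner genes listed further below, none of the 7 NuA4 partners of ESA1 was called in this comparison. Of 10 genes of SAGA, another acetyltransferase complex, 1 was higher and 3 were lower. ESA1 read -0.28 on the Pool B array and 0.41, 0.88 and 1.01 on the Pool A arrays, a difference of -1.05 ± 0.22 (limma adjusted p = 0.0014). SAS5 read -0.22 on the Pool B array and 0.29, 0.77 and 0.76 on the Pool A arrays, a difference of -0.82 ± 0.21 (limma adjusted p = 0.0073). SAS2 read -0.22 on the Pool B array and 0.28, 0.86 and 0.57 on the Pool A arrays, a difference of -0.79 ± 0.21 (limma adjusted p = 0.0101), which missed the threshold without Pool A replicate 2 (0.0512). In each of the 3, the Pool B value lay below every Pool A value. SAS3 (-0.23 ± 0.20) and SAS4 (0.37 ± 0.20) were not called.

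The higher strains were SIR2 (0.66 ± 0.20), SIR1 (0.61 ± 0.19) and RPD3 (0.58 ± 0.19), with limma adjusted p of 0.0191, 0.0239 and 0.0329. RPD3 read 0.30 on the Pool B array and -0.28, -0.18 and -0.38 on the Pool A arrays. These 3 calls were lost without Pool A replicate 2, without replicate 3 and after scaling of arrays to one spread, and without centring their differences were -0.039, -0.085 and -0.11. The count of 6 became 2 without replicate 2 and 3 without replicate 3. The split of 3 higher and 3 lower members became 0 and 14 without centring, where the median over all tag sets was -0.72, and 0 and 3 with arrays scaled to one spread. The share of all tag sets called under these settings is not given here, so these counts do not set the members apart. In RPD3 the single lowest-numbered spot of each tag gave 0.33 and no call.

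The means of both tags hid a larger contrast between the self-self arrays. In all 3 SIR3 sets and in HIR1 both tags were called on the Pool B array in opposite directions, which happened in 1.78% of all tag sets, and no member had both called in the same direction, against 2.53%. The first SIR3 tag read 0.07, 0.04 and 0.04 on the Pool B array in the 3 sets, against 1.16 to 1.48 on the Pool A arrays, while the second read 1.08, 1.09 and 1.14 on the Pool B array, against 0.22 to 0.44 on the Pool A arrays. The first HIR1 tag read -0.92 on the Pool B array and 0.07, -0.28 and 0.23 on the Pool A arrays, and its second tag read 0.79 on the Pool B array and 0.09, -0.13 and -0.10 on the Pool A arrays. The first minus the second tag differed by -2.05, -2.15 and -2.06 in the SIR3 sets and by -1.76 in HIR1 (limma adjusted p = 8.78e-05 in HIR1 and lower in the SIR3 sets). It was also called in ESA1 (-0.96), SIN3 (-1.11), HTZ1 (-1.17) and HST2 (-0.82, limma adjusted p = 0.0498). All 8 of these tag sets (6 genes) were negative, against 15.3% negative and 15.2% positive (30.5% together) over all tag sets. Of the 84 member tags, 16 were called on the Pool B array. By gene, with SIR3 counted once, 5 of 80 were higher and 7 lower. Over all 84, 7 were higher and 9 lower, against 7.89% and 13.3% (21.2% together) of all tags. This split became 0 and 16 without centring, 3 and 9 after scaling of arrays to one spread, 15 and 10 with the blocks centred separately and 16 and 10 with quantile normalization. It was 0 and 0 without Pool A replicate 1, where no tag in the whole table was called, and 1 and 8 without replicate 3. The share of all tags called under the other settings is not given here, so these counts do not set the members apart.

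**Figure D5:**
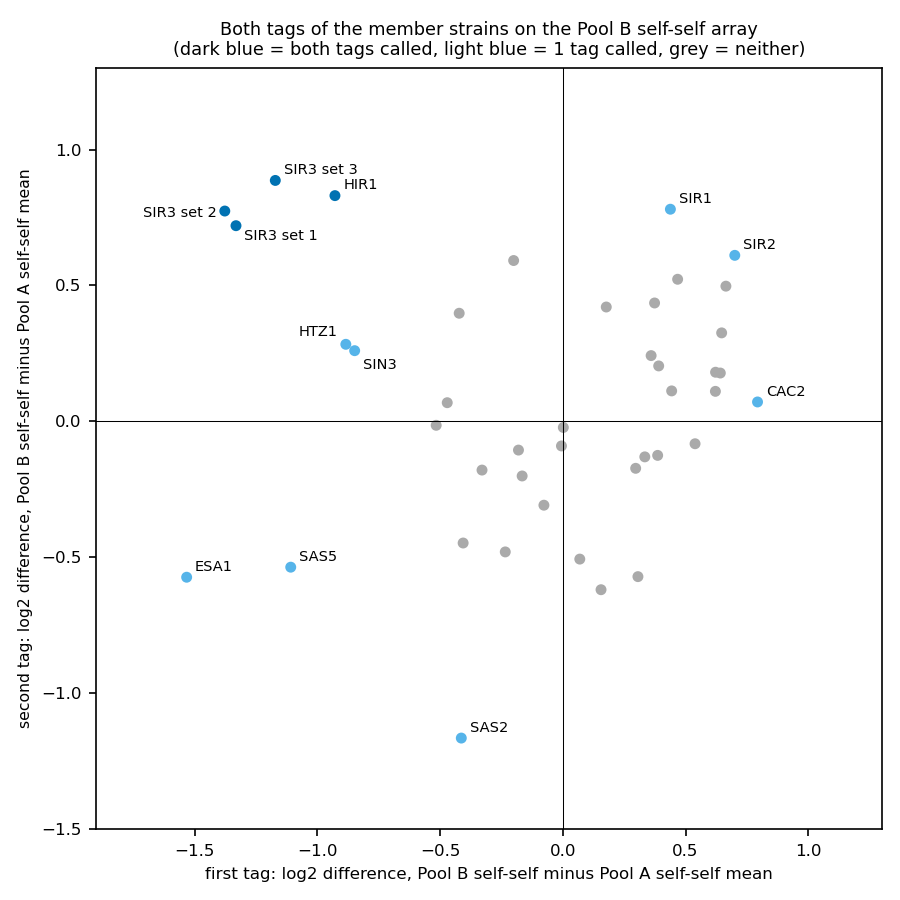
Log2 difference between the Pool B array and the mean of the Pool A arrays (Pool B minus Pool A) for the first tag (x axis) and the second tag (y axis) of the 42 member tag sets, coloured by how many tags were called. The 3 SIR3 sets and HIR1 lie together in the upper left, and ESA1, SAS5 and SAS2 lie in the lower left.

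Partners of the members in 8 lists of chromatin complexes and regulators were read in the same fit, with 77 of 80 listed genes measured. On the mixed array 5 were higher and 4 lower, against the 1.54% and 5.84% of all tag sets given above, and the median difference was 0.06. DOT1 (YDR440W, chromosome IV), which encodes the methyltransferase of the nucleosome core that modulates telomeric silencing, read 1.91 on the mixed array, 0.05 on the Pool B array and -0.28, -0.36 and -0.43 on the Pool A arrays. Its difference was 2.27 ± 0.19, with both tags called (2.51 and 2.02). RXT3 (YDL076C, chromosome IV), an Rpd3 complex subunit, differed by 1.97 ± 0.19, where the second tag (3.57) was called and the first (0.37) was not. Among the SWR1 complex genes, whose products deposit Htz1, VPS72 on chromosome IV had the largest difference, 0.74 ± 0.19. VPS75, a histone chaperone gene on chromosome XIV, differed by 0.72 ± 0.20.

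In the other direction, CPR1 (YDR155C, also on chromosome IV), a cyclophilin gene of the Set3 complex, differed by -1.13 ± 0.20 through its first tag (-1.87). The SAGA gene SPT8 on chromosome XII differed by -0.64 ± 0.19. The SPT8 strain also differed on the Pool B array, by -1.13, and its Pool A mean was 0.75. The COMPASS genes, partners of SET1, and the NuA4 partners of ESA1 had no call, with SDC1 (0.37 ± 0.19) and EPL1 (-0.37 ± 0.19) furthest from 0. The members therefore held no strain as high as DOT1 or RXT3, and their highest difference was the 0.51 of SIR1. The 7 member tag sets on chromosome IV were those of SIR2, SAS4, HST4, HTB1, HTA1, SIR4 and HDA2. None of the 7 was higher and 1 (HST4) was lower, against 1.54% and 5.84% of all tag sets. The differences of the 7 ran from -1.09 to 0.29.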

How the data were processed

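Each of the 5 arrays measured tag DNA of pooled yeast deletion strains in 2 channels. The deposited table holds log2 ratios, 1 per spot, for 22575 spots. The base was settled from the values, since 2 to the power of the value gave whole thousandths (within 0.08 of a thousandth) for 100% of ratios under 1.5, against 16.6% for base 10. For the scanner, the background correction and the normalization, the method is not given in the sources used here. Genes came from the platform annotation (18794 spots, 5325 genes), and locus tags and chromosomes from a gene table of assembly R64; the files name no build, so no coordinates are given. Block partners lie 10971 spot numbers apart. A lone spot and a run of 5 spots were joined as 1 tag where a gene had 1 of each, and were otherwise kept as separate tag sets. Spots of a tag (1, 5 or 6) were averaged, and both tags averaged for a strain.

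Arrays were centred on the median of the named spots. Limma 3.58.1 (R 4.3.3; lmFit, contrasts.fit, eBayes) was fitted over all rows with 3 groups, two-sided, Benjamini-Hochberg adjusted over the whole table, with calls at an adjusted p under 0.05. Only the 3 Pool A arrays inform the residual variance. The number of arrays limits the precision, with a median SE of 0.20 for a strain's difference. The fit was tested on simulated data in which every array had the spread of the Pool A arrays. That test cannot show whether the lone arrays vary like them. Paralogue differences used an exact permutation test over arrays. Alternatives were other centring and scaling, each Pool A array left out, other reference arrays, 1 spot per tag and robust eBayes. All members were named. Of each context list, the gene with the largest difference on the mixed array was named. Members and lists were chosen with earlier results of these data known.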

Additional observations from a re-analysis of the deposited data

Results flagged for a closer look

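The dye ratio of a pool against itself differed between the Pool B and the Pool A self-self arrays, by limma's test of that difference, in 6 member strains. It was higher on the Pool B array in SIR2 (0.66), SIR1 (0.61) and RPD3 (0.58), and lower in SAS2 (-0.79), SAS5 (-0.82) and ESA1 (-1.05). There was 1 Pool B self-self array. Groups of 3 arrays or fewer were not searched for outlying samples.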

How the results depend on the processing

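On the mixed array the 2 called members (HST4 and HHT1) were 0 against the 4 self-self arrays together and 0 with both tags required, and they ranged from 1 to 3 with a Pool A replicate left out. The other settings, including Pool B as the reference, kept the same 2 members. The 2 called member tags became 10 with the tag blocks centred separately, 8 with quantile normalization, 4 with the lowest-numbered spot, 4 with robust eBayes, 1 against the 4 self-self arrays together, 10 with the Pool B array as the reference and 0 to 3 with a replicate left out. The 4 members with unequal tags became 7 with the blocks centred separately, 7 with quantile normalization, 1 with arrays scaled to one spread, 0 with all 4 self-self arrays and 1 to 7 with a replicate left out. Against 0 on the Pool A arrays, the 20 members became 8 without centring and 11 to 19 with a replicate left out, and the 39 member tags became 20 and 24 to 33. For the Pool B array, the 6 members became 14 without centring, 3 after scaling arrays to one spread and 2 to 8 with a replicate left out, and the 16 member tags 25 with the blocks centred separately, 26 with quantile normalization and 0 to 11 with a replicate left out. The count of 0 came without replicate 1, where no tag in the whole table was called on the Pool B array and 12 were called on the mixed array. Without centring, SIR2 (-0.039), SIR1 (-0.085) and RPD3 (-0.11) turned negative on the Pool B array. What lies behind these changes was not tested. Shares or counts over the whole table are given only for the Pool B reference and for tags without replicate 1. The other counts therefore do not show whether the members changed more or less than the whole table.

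By tag block, the change of HHT1 minus HHT2 on the mixed array was -0.67 and -1.26. That of HHF1 minus HHF2 was 0.002 and -0.42, that of HTA1 minus HTA2 was 0.22 and -0.031, and that of HTB1 minus HTB2 was -0.14 and 0.50. All pairs but the first changed sign between tags. With a replicate left out, HHT1 minus HHT2 stayed between -0.99 and -0.93. Of 1280 values of single members under an alternative, 65 lost a call, 27 gained one and 3 reversed, and 120 more changed sign without a call on either side. No paired analysis was possible because the labels give no pairing of arrays between the groups. Ratios without intensities gave no measure of signal over background.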
